A study of Columba livia with 12 samples.

Results

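miR-103 and miR-107 are described here in whole livers of Columba livia, the domestic pigeon, of the white king breed. The birds were 1 day (1d), 14 days (14d) or 28 days (28d) old, or breeding parents of 2 years (2y). The members are the 4 rows of the deposited count table with a pigeon name for miR-103 or miR-107 on either arm, out of 1039 named mature miRNAs: cli-miR-103-3p, cli-miR-107-3p, cli-miR-103-5p and cli-miR-107-5p, written without the prefix from here on. Small RNA of 3 pigeons was sequenced at each age, 1 library per bird. Birds under 2 years were squabs of mixed sex; the labels name no treatment and give no sex for a sequenced bird. Titles and stage labels agree on 3 libraries for 1d, but the description of replicate 2 there speaks of a pigeon of 2 days and that of replicate 3 of a pigeon of 3 days. Whole liver was used, so fewer cells of a type and less miRNA per cell cannot be told apart.

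MicroRNAs are short RNAs that guide silencing proteins to messenger RNAs through their first bases, the seed. miR-103 and miR-107 carry the same seed, and in human and mouse their mature 3p forms differ at a single base near the 3′ end. In mammals they lie in introns of the genes for pantothenate kinases, the enzymes that begin the synthesis of coenzyme A. In mouse liver they are known as metabolic miRNAs: they are raised in obese mice and lower insulin sensitivity, with caveolin-1 among their targets.

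Total counts were 3100273 to 9393075 per library, and 345 of the 1039 miRNAs had enough counts to be tested, among them miR-103-3p and miR-107-3p. Levels are given on 2 scales. The share is the percent of a library's total count. CPM is the count per 1000000 of a library size scaled by TMM, a factor meant to equalise the bulk of miRNAs between libraries. It did so only in part here. With TMM the median log2 fold change over all tested miRNAs was still 0.49 from 1d to 14d and -0.41 from 14d to 2y. A fit on the 211 miRNAs with 10 CPM in 3 libraries, with its own TMM factors, gave medians of 0.05 and -0.09. TMM factors exceeded 1 in the younger birds (1d, 1.61 to 1.96; 14d, 1.30 to 1.56) and lay below 1 in the older ones (28d, 0.511 to 0.954; 2y, 0.568 to 0.730), so the scales rank the ages differently. The 28d replicate 1 library stood apart from the other 28d libraries, with a factor of 0.954 against 0.516 and 0.511.

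The main 3p arms were highest at 14d on both scales. As a share of all counts they then stood lower at 28d and 2y than at 1d, while on the TMM scale their means stood above 1d without passing the test. miR-107-3p held 0.263, 0.241 and 0.324% of the counts in the 3 libraries at 1d, 0.414, 0.381 and 0.370% at 14d, 0.116, 0.107 and 0.125% at 28d, and 0.154, 0.152 and 0.147% at 2y. miR-103-3p held 0.265, 0.242 and 0.327% at 1d, 0.417, 0.384 and 0.374% at 14d, 0.117, 0.108 and 0.126% at 28d, and 0.155, 0.153 and 0.148% at 2y. For either miRNA the order of the shares was 14d, 1d, 2y and 28d, and no neighbouring ages in that order overlapped. The mean shares of miR-107-3p in this order were 0.388 ± 0.0225, 0.276 ± 0.0430, 0.151 ± 0.00388 and 0.116 ± 0.00905% (SD, n = 3 pigeons each). The shares differed over the 4 ages in an exact permutation test of the one-way F statistic, two-sided by construction, for miR-103-3p and for miR-107-3p (p = 6.5e-05 each, the smallest that the 15400 partitions of the libraries can give, adjusted p = 9.74e-05 over 3 such tests). Pairs of ages were not tested in this way, because 3 libraries against 3 cannot reach 0.05. How many other miRNAs differed in the permutation test was not counted, so it shows no trait particular to the members.

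**Figure D1:**
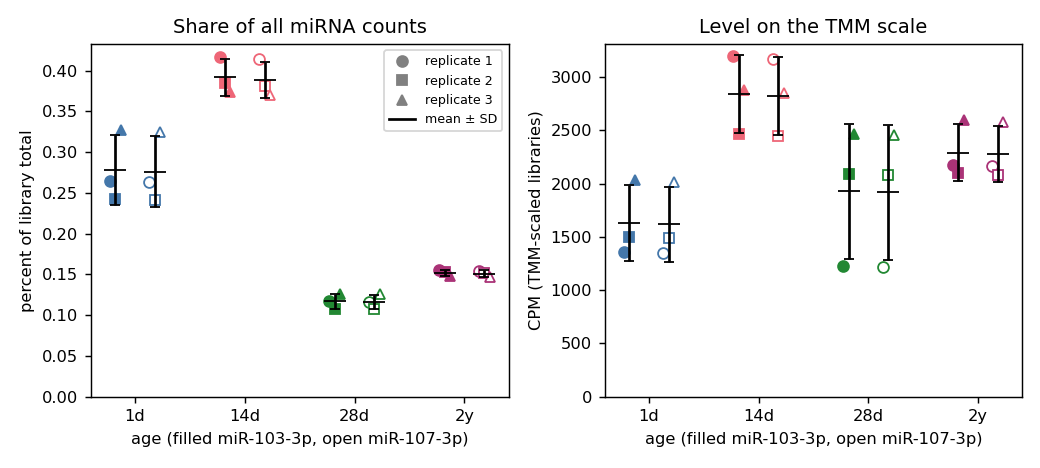
Share of all counts in percent (left) and TMM-scaled CPM (right) of miR-103-3p (filled) and miR-107-3p (open) in each library by age, with the mean ± SD of 3 libraries. The left panel shows 14d above every other age and 28d lowest; in the right panel 14d is again highest, and 28d spreads from 1215 to 2456 CPM for miR-107-3p.

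On the TMM scale miR-107-3p was at 1346, 1491 and 2016 CPM at 1d, 3166, 2442 and 2850.2 CPM at 14d, 1215, 2081 and 2456 CPM at 28d, and 2167, 2085 and 2582 CPM at 2y. The order of the mean levels was here 14d, 2y, 28d and 1d, at 2819 ± 363, 2278 ± 266, 1917 ± 636 and 1618 ± 353 CPM. Every 14d library lay above every 1d library (36.5% of tested miRNAs did so), every 2y library did too (26.1%), and neighbouring ages in this order overlapped. The lowest 28d value belonged to replicate 1, the library with the largest factor of its age, while the shares of the 3 28d libraries lay close together. miR-103-3p had the same order, at 2843 ± 366, 2289.5 ± 268, 1927 ± 636 and 1629 ± 356 CPM.

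Position among the miRNAs of a library does not use a scaling factor. miR-107-3p was the 31st to 34th most abundant miRNA at 14d, the 35th to 39th at 2y, the 37th to 44th at 1d and the 37th to 49th at 28d. It thus stood nearer the top at 14d than in any library of another age, though narrowly, as the 34th at 14d against the 35th at 2y. How many other miRNAs did so was not counted.

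Between 1d and 14d miR-103-3p rose 1.75-fold (log2 fold change 0.80 ± 0.27 SE, adjusted p = 0.0483) and miR-107-3p 1.74-fold (log2 fold change 0.80 ± 0.27 SE, adjusted p = 0.0487) by the quasi-likelihood test of edgeR, with Benjamini-Hochberg adjustment over all 345 miRNAs. Of all tested miRNAs 31.0% passed in this comparison and 16.8% were higher at 14d. Over all tested miRNAs the median was 0.49 in log2. The call lay close to the threshold, and over the alternative runs it held in 4 and ended in 19 for either member. It ended without any single one of the 12 libraries (adjusted p 0.0528 to 0.207 for miR-103-3p and 0.0528 to 0.209 for miR-107-3p). Each of these runs redid the filter and the scaling, with 385 to 410 miRNAs tested in place of 345. The call thus ended also without a 28d or 2y library, outside the comparison, and its end does not single out a bird. The medians over all tested miRNAs were 0.22 without 28d replicate 1 and 0.74 without 1d replicate 3. The log2 fold change of miR-107-3p then lay between 0.38, without 28d replicate 1, and 0.94, without 1d replicate 3. With the total count alone it was 0.49 ± 0.19 SE (adjusted p = 0.0847), against a median of 0.18 over all miRNAs, of which 22.6% passed. The direction was the same under each alternative run, and the shares of the 3 14d libraries lay above those of the 1d libraries. Shares did not overlap in this direction for 29.0% of tested miRNAs.

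Between 14d and 28d the direction was downward on both scales, with very different sizes. With TMM the log2 fold change of miR-107-3p was -0.56 ± 0.27 SE (95% interval -1.16 to 0.05, adjusted p = 0.144) and did not pass, where 28.1% of all miRNAs passed. With the total count alone miR-107-3p fell 3.34-fold (log2 fold change -1.74 ± 0.19 SE, adjusted p = 0.000111), and miR-103-3p fell 3.35-fold (adjusted p = 0.000111). In that fit 33.6% of miRNAs passed and 28.4% were lower at 28d; the shares of 41.7% lay lower without overlap, those of the members among them. Its median over all miRNAs was -1.30, against -0.28 with TMM, so the bulk of miRNAs moved with the scale. The fall also passed in DESeq2 (log2 fold change -0.66, adjusted p = 0.0219 for miR-107-3p), with upper-quartile factors (-0.87, adjusted p = 0.0164) and with a stricter filter on low counts (-0.70, adjusted p = 0.0176). These called 127 of 345, 101 of 345 and 95 of 211 miRNAs. With the total count, 4 alternative runs passed for miR-107-3p and 19 did not. Without any single library the TMM fit of edgeR did not pass (adjusted p 0.103 to 0.244).

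Between 14d and 2y the log2 fold change of miR-107-3p was -0.31 ± 0.27 SE with TMM (95% interval -0.91 to 0.30, adjusted p = 0.418) and -1.36 ± 0.19 SE with the total count alone (adjusted p = 0.000578), a 2.57-fold fall on that scale. Of all miRNAs 29.6% passed with TMM and 40.0% with the total count (35.9% lower at 2y), and the shares of 54.8% lay lower without overlap. Without 28d replicate 1 the TMM value was 0.02 (adjusted p = 0.937).

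From 1d to the 2 later ages the direction itself depended on the scale. With TMM the log2 fold change of miR-107-3p from 1d to 28d was 0.25 ± 0.27 SE (95% interval -0.36 to 0.85, adjusted p = 0.565), and with the total count alone it was -1.25 ± 0.19 SE (adjusted p = 0.000596), a 2.38-fold fall. From 1d to 2y it was 0.49 ± 0.27 SE with TMM (95% interval -0.11 to 1.10, adjusted p = 0.202) and -0.87 ± 0.19 SE with the total count alone (adjusted p = 0.00524), a 1.83-fold fall. miR-103-3p gave -1.25 and -0.87 with the total count. With TMM 29.6% and 27.5% of all miRNAs passed in these comparisons, and with the total count 28.4% (25.8% lower) and 35.4% (31.9% lower). The shares of the members fell below those of 1d without overlap, which held for 37.7% of miRNAs at 28d and 47.5% at 2y. The TMM direction from 1d to 28d also turned without 28d replicate 1 (-0.06) and without 14d replicate 1 (-0.06). Between the scales the median of all miRNAs shifted by -1.31 in log2 from 1d to 28d and by -1.30 from 1d to 2y.

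Between 28d and 2y neither member passed. miR-107-3p was 1.19-fold higher at 2y with TMM (log2 fold change 0.25 ± 0.27 SE, 95% interval -0.36 to 0.85, adjusted p = 0.777) and 1.30-fold higher with the total count (0.38 ± 0.19 SE, adjusted p = 0.411). No miRNA passed edgeR's test here (0% called, 39 miRNAs at an unadjusted p under 0.05), and DESeq2 called 18 and limma voom 0. The shares of the 2y libraries nevertheless lay above those of all 28d libraries, which 6.09% of tested miRNAs did in this direction. Over the 4 ages together the members did not pass with TMM (adjusted p = 0.119 for miR-103-3p and 0.121 for miR-107-3p, 45.2% of all miRNAs called) and passed with the total count (adjusted p = 0.000105 each, 51.6% called).

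**Figure D2:**
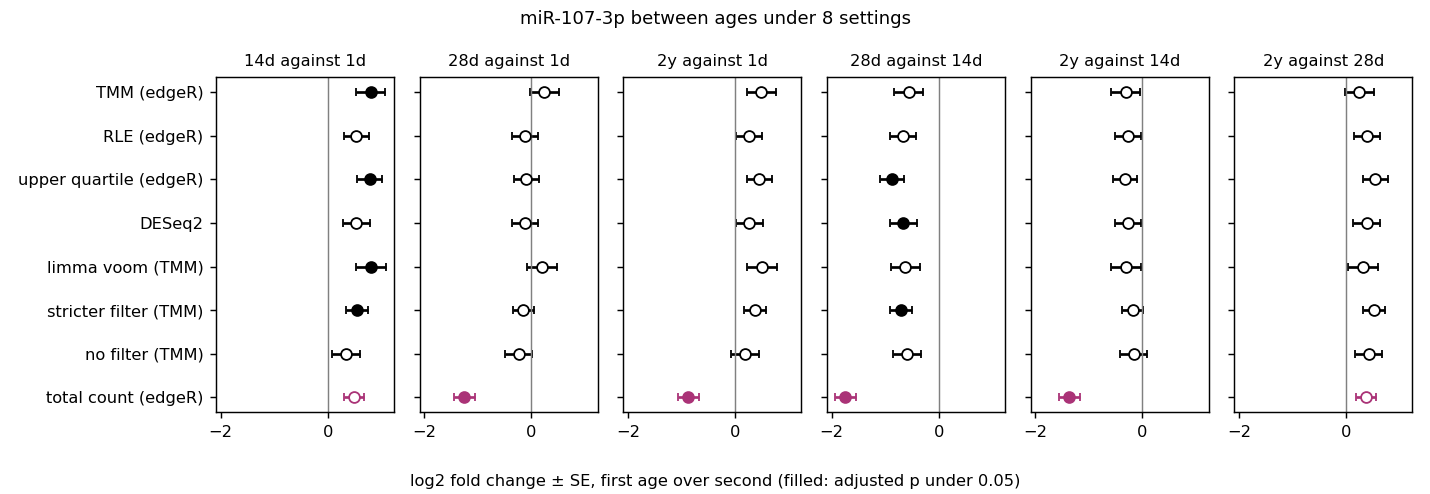
Log2 fold change ± SE of miR-107-3p in the 6 comparisons of ages (panels) under 8 settings (rows); filled points had an adjusted p under 0.05. With the total count alone (bottom row) the value lies at -1.25 for 28d against 1d and -0.87 for 2y against 1d, where TMM gives 0.25 and 0.49.

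Another denominator, chosen after the values were seen, was the counts outside the 10 most abundant miRNAs. Averaged over the libraries, these 10 held 68.1 ± 0.874% (1d), 70.4 ± 1.43% (14d), 79.0 ± 9.39% (28d) and 82.3 ± 2.05% (2y) of all counts. Of the remaining counts miR-107-3p made up 0.864 ± 0.125% (1d), 1.31 ± 0.0123% (14d), 0.620 ± 0.220% (28d) and 0.861 ± 0.0828% (2y). The 14d libraries lay above all others on this measure (1.30 to 1.33%), and the means at 1d and 2y differed by less than the SD. The 4 ages differed in the exact permutation test (p = 0.00169, adjusted p = 0.00253). How many other miRNAs differed or lay apart at 14d on this measure was not counted, so it shows no trait particular to the members.

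The 2 main rows were nearly the same row. In 1d replicate 1 miR-103-3p had 9602 counts and miR-107-3p 9536, in 14d replicate 3 they had 26489 and 26256, and in 28d replicate 3 they had 3908 and 3888. miR-103-3p was the larger in 12 of 12 libraries, by 19 to 233 counts, or 0.299 to 0.916% of its count. How reads that match both miRNAs were assigned is not given in the sources used here, so the rows are uncertain as separate measurements and give 1 profile rather than 2 independent ones. Among 105 tested pigeon miRNAs of at least 100 CPM, 2 of 5460 pairs of rows lay within 2% of each other in every library, this pair and let-7a-3p with let-7e-3p.

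The difference between the rows averaged 0.665 ± 0.0732% (1d), 0.836 ± 0.0387% (14d), 0.576 ± 0.313% (28d) and 0.514 ± 0.0111% (2y) of the miR-103-3p count. Every 14d library lay above every 1d and 2y library, while the 28d libraries spread from 0.299% to 0.916%. The log2 ratio of miR-107-3p to miR-103-3p did not pass over the 4 ages (exact permutation test, p = 0.192, adjusted p = 0.192). Without 28d replicate 1, whose difference was the largest of all libraries, it passed the same exact permutation test (p = 0.00039). In the other 12 alternative runs the ratio did not pass.

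**Figure D3:**
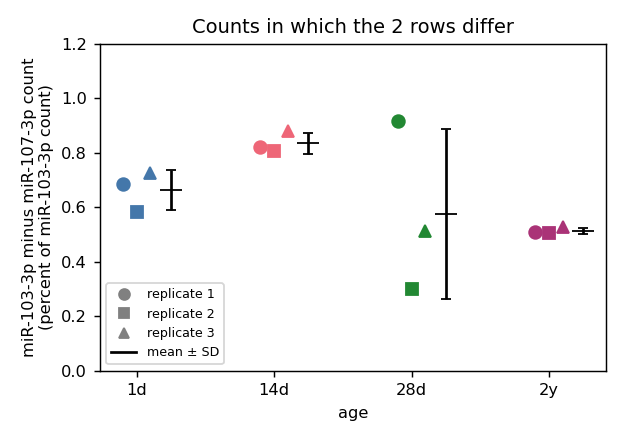
Count of miR-103-3p minus that of miR-107-3p, as a percent of the miR-103-3p count, in each library by age with the mean ± SD of 3 libraries. All 12 values lie between 0.299 and 0.916%, and 28d replicate 1 stands far above the other 28d libraries.

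The 5p arms, the strands opposite the main ones in the hairpin, were close to the limit of detection and too low to be tested. miR-103-5p had 3, 3 and 6 counts at 1d, 1, 7 and 7 at 14d, 16, 3 and 0 at 28d, and 3, 2 and 4 at 2y. Its highest count was in 28d replicate 1, and the count of 0 in 28d replicate 3 allows a share of up to 9.68e-05% of that library. Over all libraries 55 of the counts of miR-103 were on the 5p arm, which is 0.0344% (exact Clopper-Pearson 95% interval 0.0259 to 0.0448%). In single libraries this percentage ran from 0 to 0.151%, the latter in 28d replicate 1. miR-107-5p had 3 counts in all, 1 each in 14d replicates 1 and 3 and 28d replicate 1. That is 0.00189% of the counts of miR-107 (exact interval 0.00039 to 0.00553%). The 3p counts in both percentages come from rows that may share reads, so neither need be the arm ratio of its own hairpin. These intervals and limits cover counting error only and leave out the variation between birds, and no molecular identifiers are given. Unlike the 3p rows, which were nearly the same, the 5p rows of miR-103 and miR-107 had different counts (55 and 3 in all).

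Ratios between miRNAs of one library are free of any scaling factor, and those below were chosen as a measure after the values were seen. They set miR-107-3p against 8 other miRNAs, the 4 most abundant tested ones of each of 2 lists. The first list holds miR-15 and miR-16, families known to restrain cell proliferation, whose 5′ ends share a run of bases with miR-103 and miR-107 in other vertebrates. All 8 ratios differed over the 4 ages in the exact permutation test, with p adjusted over the 8 from 0.00026 to 0.00396, and with any single library left out (adjusted p 0.00026 to 0.0182). Ratios to the remaining miRNAs were not tested, so the 8 do not show a trait particular to the members. Of all tested miRNAs, 45.2% with TMM and 51.6% with the total count were themselves called over the 4 ages by edgeR.

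Against miR-16a-5p, the ratio of miR-107-3p was 0.406 ± 0.113 (1d), 1.12 ± 0.0469 (14d), 0.691 ± 0.197 (28d) and 1.24 ± 0.222 (2y). miR-16a-5p thus had more counts than miR-107-3p in each 1d and 28d library and fewer in each 14d and 2y library. Against miR-16b-5p the ratio was 1.62 ± 0.522, 9.88 ± 0.717, 4.86 ± 2.03 and 7.52 ± 0.585 in the same order of ages, and it was lower in every 1d library than in any later one. Against miR-15c-5p it was 0.738 ± 0.0384, 1.02 ± 0.310, 2.93 ± 0.606 and 3.97 ± 0.501, and it was higher in every 28d and 2y library than in any younger one. Against miR-15a-5p the order was another, at 3.05 ± 0.600, 7.03 ± 0.700, 1.85 ± 0.672 and 3.50 ± 0.590, with the highest values at 14d. The miR-103 and miR-107 profile was therefore unequal to that of each of these 4 miRNAs.

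The second list holds miRNAs known from lipid and glucose metabolism in mammals. Against miR-27b-3p, which is linked to lipid handling in liver, the ratio of miR-107-3p was 0.436 ± 0.106 (1d), 0.993 ± 0.136 (14d), 0.309 ± 0.0389 (28d) and 0.474 ± 0.0402 (2y). Against miR-143-3p, a miRNA of smooth muscle that also impairs insulin signalling in mouse liver, it was 0.0413 ± 0.0114, 0.148 ± 0.0389, 0.0138 ± 0.00611 and 0.0120 ± 0.00347. Both ratios were highest in the 14d libraries, with no overlap with another age. With TMM, miR-27b-3p and miR-143-3p themselves had their lowest means at 14d (2885 and 19868 CPM). How many other miRNAs gave such ratios was not counted.

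miR-29a-3p and miR-29b-3p, whose known targets include collagen mRNAs, behaved differently beside the members. miR-107-3p had 11.1 ± 0.782 times the counts of miR-29a-3p at 1d and 10.5 ± 1.96 times at 14d, then 2.09 ± 1.05 times at 28d and 1.22 ± 0.176 times at 2y. The 28d libraries gave ratios from 0.872 to 2.74, with replicate 1 lowest. Against miR-29b-3p the ratio was 75.9 ± 13.0, 73.9 ± 5.48, 11.6 ± 7.28 and 7.23 ± 1.27. In both cases the 1d and 14d libraries overlapped, and lay above all 28d and 2y libraries.

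**Figure D4:**
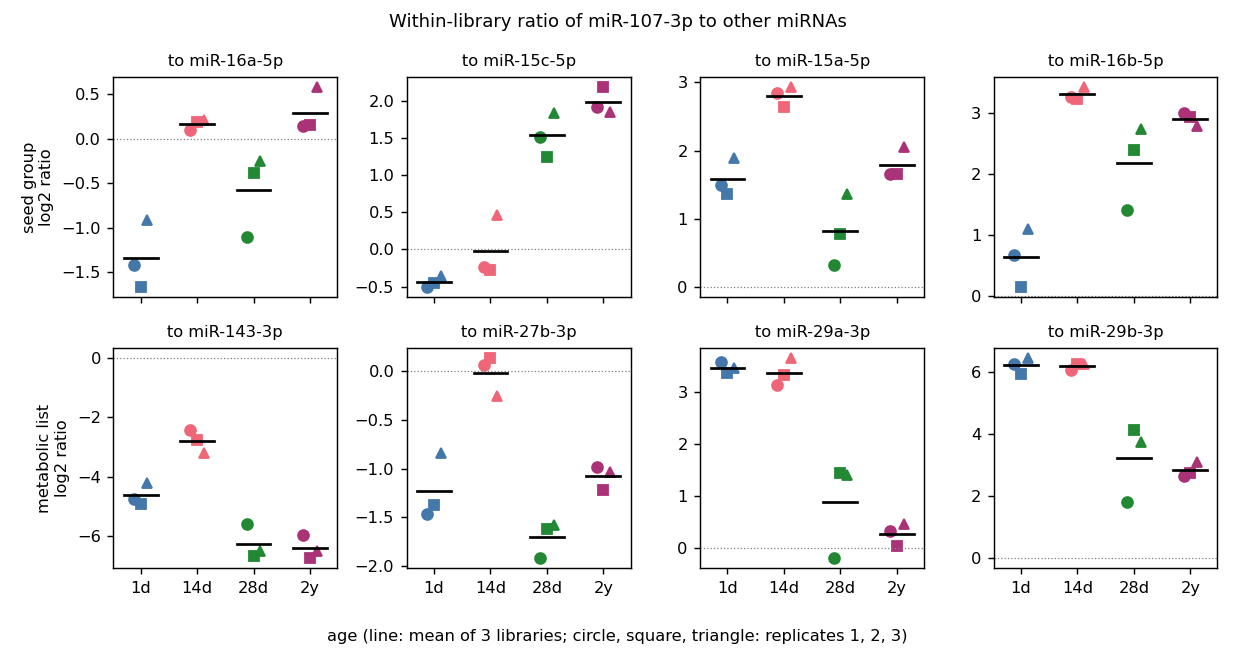
Log2 ratio of the miR-107-3p count to that of 4 miRNAs of the miR-15 and miR-16 list (top) and 4 of the metabolic list (bottom) in each library by age; lines are means of 3 libraries. The ratio to miR-27b-3p and miR-143-3p peaks at 14d, while the ratios to miR-29a-3p and miR-29b-3p are highest at 1d and 14d.

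All 10 rows of miR-15 and miR-16 were tested. Among them were minor 3p arms at means of 0.82 to 6.8 CPM, which do not have the 5′ end of the main arms. Between 1d and 14d, where miR-103-3p and miR-107-3p rose, 0 of the 10 rose and 3 fell with TMM (14.2% of all miRNAs were lower), and 0 rose and 3 fell when only total counts were used (13.9% lower). Those that fell were miR-16a-5p (1.60-fold, adjusted p = 0.0233), miR-16b-5p (3.65-fold, adjusted p = 0.000480) and the minor arm miR-15c-3p (8.26-fold, adjusted p = 0.00487). Leaving out 1d replicate 2 or 14d replicate 2 ended the call of miR-16a-5p (adjusted p 0.0615 and 0.0592). Of the 10, 1 was called higher and 2 lower with TMM without 1d replicate 2, and 0 higher and 4 lower without 28d replicate 1. In 1d replicate 2 miR-15b-5p had 0 counts, against 1151 and 1341 in the other 1d libraries. The median log2 fold change of the 10, minor arms included, was -0.78, against 0.49 over all tested miRNAs. Of the 5p arms, miR-15b-5p (log2 fold change 3.08, adjusted p = 0.133) and miR-15c-5p (0.42, adjusted p = 0.346) lay higher at 14d with TMM without passing. The 5p arms miR-16a-5p, miR-16b-5p and miR-15a-5p (-0.40, not passed) lay lower. Between 1d and 2y 0 rose and 5 fell with TMM (13.0% of all miRNAs were lower). With the total count 0 rose and 8 fell (31.9% lower). Minor 3p arms were among those that fell in either fit. miR-15c-5p fell 3.74-fold with TMM (adjusted p = 0.00148). Between 14d and 28d 1 rose, miR-15a-5p (2.60-fold, adjusted p = 0.000639), and 1 fell, miR-15c-5p (4.41-fold, adjusted p = 0.00113), where 12.5% of all miRNAs were lower; without 1d replicate 2, 2 fell. With the total count alone none of the 10 rose and 3 fell there, close to the 28.4% of all miRNAs that were lower.

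Of the 15 rows of the metabolic list 14 were tested. From 1d to 14d, 3 of them rose and 0 fell with TMM (16.8% of all miRNAs higher), and 0 rose and 2 fell by the total counts (13.9% lower), so both counts lay near those of all miRNAs. With single libraries left out, the TMM fit called 0 to 4 of them higher and 0 lower, except that 2 were higher and 4 lower without 28d replicate 1. From 1d to 2y 7 rose and 0 fell with TMM, where 14.5% of all miRNAs were higher. With the total count 4 rose and 2 fell (3.48% of all miRNAs higher and 31.9% lower). The 7 with TMM were both arms of miR-29a, miR-29b and miR-143, and miR-33-5p. No row of miR-27b or of the miR-34 family passed there. Of the 7, miR-29a-5p and miR-29b-5p had only 1 to 4 counts in the 1d libraries. The median log2 fold change of the 14 was 2.13 against 0.04 over all miRNAs with TMM, and 0.72 against -1.26 with the total count. miR-29a-3p rose 12.9-fold (adjusted p = 6.18e-05) and miR-29b-3p 14.8-fold (adjusted p = 7.26e-05) with TMM, and 5.07-fold and 5.84-fold with the total count. miR-27b-3p did not pass from 1d to 2y with TMM, and fell 2.01-fold with the total count (adjusted p = 0.00351). From 14d to 28d 6 rose and 0 fell with TMM, where 15.7% of all miRNAs were higher, and 3 rose and 2 fell with the total count (5.22% higher and 28.4% lower).

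The miRNAs whose profile over the 12 libraries lay closest to that of miR-107-3p were miR-455-5p, miR-30d-5p, let-7a-5p, miR-138-5p and miR-429-3p. Likeness was the root mean square difference of log2 CPM after each miRNA was centred on its mean, among 103 tested pigeon miRNAs of at least 100 CPM other than the pair itself, and it does not change with the scaling of the libraries. The differences were 0.33, 0.36, 0.44, 0.45 and 0.47 in log2, against a median of 0.98 over the 103 and 0.0026 for miR-103-3p. A row that stayed flat on the TMM scale would differ from miR-107-3p by about the SD of miR-107-3p itself, 0.43. By this measure let-7a-5p, miR-138-5p and miR-429-3p were no closer to miR-107-3p than a row flat on the TMM scale. For a row flat on the total-count scale that SD was 0.73, and all 5 were closer. These 5 differ widely in level: miR-30d-5p held 8.90 ± 2.42% of the counts at 14d, where miR-455-5p held 0.0238 ± 0.00406%. miR-30d-5p rose 2.27-fold from 1d to 14d with TMM (adjusted p = 0.0278) and let-7a-5p 2.48-fold (adjusted p = 0.0494), while miR-455-5p (1.22-fold), miR-138-5p (1.01-fold) and miR-429-3p (0.883-fold) did not pass. The members varied less over the libraries than most: the SD of log2 CPM of miR-107-3p was 0.43 with TMM, the 11th smallest of 105, against a median of 0.98, and 0.73 on the total-count scale, the 28th smallest, against a median of 0.96.

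**Figure D5:**
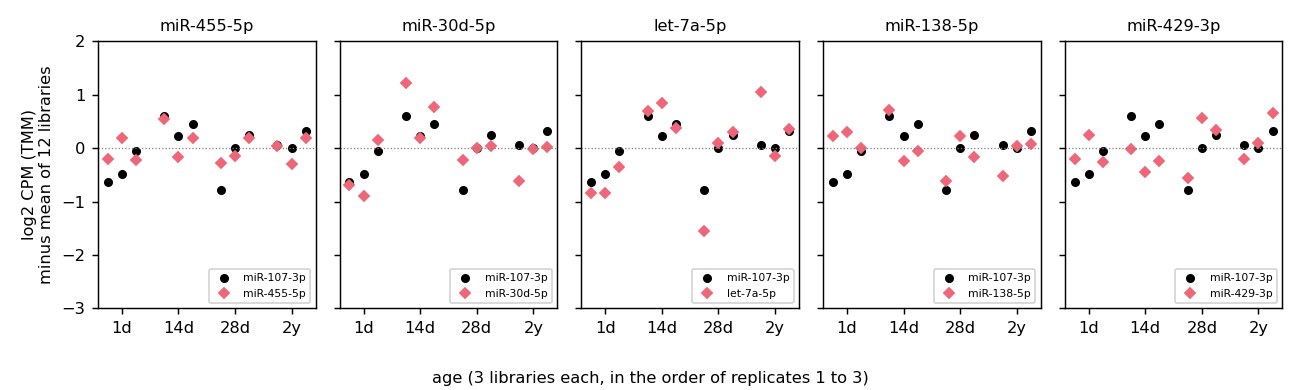
Log2 CPM (TMM) minus the mean of the 12 libraries for miR-107-3p (black circles) and each of the 5 closest miRNAs (red diamonds), by age with 3 libraries each. For let-7a-5p every 14d value lies above every 1d value, with 2y replicate 1 highest (1.05) and 28d replicate 1 lowest (-1.55); for miR-30d-5p 1d replicate 3 (0.16) lies level with 14d replicate 2 (0.19), and the other 3 are flatter than miR-107-3p between these ages.

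Shares of markers of liver cell types also varied between ages. The hepatocyte miRNAs (miR-148a and miR-194) took shares of 17.8 ± 2.34% (1d), 6.02 ± 0.381% (14d), 20.9 ± 4.24% (28d) and 17.3 ± 1.31% (2y). They were lowest at 14d, where the members were highest, and so were the leukocyte and mesenchymal lists below. Nearly all of the hepatocyte sum was miR-148a-3p, with 11521463 counts in all against 2893 of miR-194-5p. The leukocyte list (miR-142, miR-146 and miR-155) held 3.99 ± 1.19, 1.88 ± 0.354, 5.31 ± 3.43 and 2.88 ± 0.274%, with 8.99% in 28d replicate 1. The list of mesenchymal miRNAs (miR-214, miR-199, miR-145 and miR-143) made up 8.89 ± 0.955, 4.62 ± 0.846, 11.3 ± 3.19 and 15.5 ± 3.48%, and miR-126 of endothelium 4.08 ± 1.06, 2.44 ± 0.293, 2.80 ± 1.14 and 2.21 ± 0.0824%. The epithelial list (the rows of miR-200a, miR-200b and miR-429) held 0.0625 ± 0.00151, 0.0952 ± 0.0129, 0.0552 ± 0.0358 and 0.0402 ± 0.00096%, and the muscle list (miR-1, miR-133 and miR-499) 0.272 ± 0.149, 0.366 ± 0.151, 0.105 ± 0.0726 and 0.0378 ± 0.00582%. The last 2 lists, like the members, had their highest mean share at 14d, but miR-429-3p of the epithelial list did not, with shares of 0.0203, 0.0230 and 0.0161% at 1d and 0.0154, 0.0137 and 0.0130% at 14d. The part of cell makeup in the levels of miR-103 and miR-107 was not tested.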

How the data were processed

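The livers of 16 birds were collected at each age, of which 3 were used for small RNA libraries. Per the labels' protocols, RNA of 10 to 45 nt was cut from a gel and sequenced from one end for 50 bp. The submitters' processing notes name Bowtie; the sources used here give no version, genome build or treatment of reads shared by several miRNAs. The deposited values are raw counts of reads for each mature miRNA (per the file headers), and libraries were grouped by title. miRNA sequences are not used here.

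edgeR 4.0.16 (R 4.3.3) was run on these counts: filterByExpr by age, TMM, and a robust quasi-likelihood fit with a mean for each age over all 12 libraries. Benjamini-Hochberg adjustment covered every tested miRNA, with 0.05 as the threshold. Alternatives were other scalings and filters, DESeq2 1.42.0, voom of limma 3.58.1, a replicate block and leaving out each library; the stricter filter asked for 10 CPM in 3 libraries. The floor for a count of 0 was 3 counts. Log2 values for likeness had 0.5 added to the counts. Scripts were tested on simulated data. Counts of same-age libraries differed far more than sampling noise allows. Members and lists were chosen with earlier results of these data known. Named were the members, the 4 most abundant tested miRNAs of the miR-15 and miR-16 list and of the metabolic list, list members that passed beside their count, and the 5 miRNAs most like miR-107-3p.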

Additional observations from a re-analysis of the deposited data

Results flagged for a closer look

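A row for a predicted miRNA that carries the number of miR-107 on its 5p arm but is no member held 1991 counts in 1d replicate 1 and 0 in the other 1d libraries. It had 0 to 152 counts in the libraries of the other ages. It was singled out as a signal in a row that no comparison reported here describes, above the 3 counts that a count of 0 allows.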

How the results depend on the processing

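With the total count alone, miR-103-3p and then miR-107-3p had log2 fold changes of 0.49 and 0.49 for 14d against 1d, -1.25 and -1.25 for 28d against 1d, -0.87 and -0.87 for 2y against 1d, -1.74 and -1.74 for 28d against 14d and -1.37 and -1.36 for 2y against 14d, with an adjusted p = 0.000105 over the 4 ages. The rise from 1d to 14d also failed to pass with relative log expression (0.54 and 0.54), no filter (0.35 and 0.35), DESeq2 (0.54 and 0.54), without the most abundant miRNA (0.74 and 0.73) and with the 3p rows joined (0.80). From 1d to 28d the sign turned with relative log expression (-0.12 and -0.12), upper-quartile factors (-0.092 and -0.090), no filter (-0.24 and -0.24), the stricter filter (-0.15 and -0.15), DESeq2 (-0.12 and -0.12) and only the 6 libraries compared (-0.11 and -0.10). The fall from 14d to 28d passed with upper-quartile factors (-0.88 and -0.87), the stricter filter (-0.70 and -0.70) and DESeq2 (-0.66 and -0.66), and the 4 ages with upper-quartile factors (adjusted p 0.0251 and 0.0261) and the stricter filter (0.0327 and 0.0334). Calls over the 6 comparisons were 17 for the miR-15 and miR-16 list (3 higher, 14 lower), 13 with no filter and 26 with DESeq2. For the metabolic list they were 30, 18 with no filter and 38 with DESeq2. Of all miRNAs the main test called 27.5 to 31.0% in each comparison but 2y against 28d (0%). The split moved with the total count, to 0 higher and 25 lower, and from 29 higher and 1 lower to 13 and 11. In that fit 2.61 to 8.70% of all miRNAs were higher and 13.9 to 35.9% lower in each comparison but 2y against 28d (0%). The causes were not tested.

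Leaving out single libraries gave, for miR-103-3p and miR-107-3p, 0.38 to 0.94 (both) for 14d against 1d, -0.06 to 0.43 (both) for 28d against 1d (-0.062 and -0.060 without 14d replicate 1), 0.37 to 0.71 and 0.38 to 0.71 for 2y against 1d, -0.70 to -0.45 and -0.70 to -0.44 for 28d against 14d, -0.33 to 0.02 (both) for 2y against 14d (0.018 and 0.023 without 28d replicate 1), and 0.18 to 0.50 (both) for 2y against 28d. Over the 4 ages the adjusted p was 0.0778 to 0.280 and 0.0781 to 0.283, the shares had p from 6.5e-05 to 0.000455, and the ratio of the rows 0.00039 to 0.352. The lists had 14 to 19 and 22 to 33 calls. With the replicate block the rise from 1d to 14d was 0.84 and 0.83 (adjusted p = 0.0513). No other call on the members changed. Replicate numbers showed no clear pairing of the libraries: 4 of 18 same-numbered pairs correlated above 0.1. The highest correlation was 0.33 among same-numbered pairs and 0.21 among the others. Of the 12 libraries 4 were closest to their own number. With 3 libraries per age these values cannot exclude a pairing. Counts of all called miRNAs ranged over the alternatives from 48 to 141 for 14d against 1d (107 in the main test), 55 to 128 for 28d against 1d (102), 64 to 131 for 2y against 1d (95), 56 to 127 for 28d against 14d (97), 51 to 138 for 2y against 14d (102) and 0 to 18 for 2y against 28d (0). The 5p arms were too low to test.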

Other observations

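Gaps in single libraries were seen in related rows, and these rows were chosen after their values were seen. miR-15b-5p had 1151 and 1341 counts in 1d replicates 1 and 3 and 0 in 1d replicate 2, and its minor arm miR-15b-3p had 65 and 85 counts there and 0 in 1d replicate 2. The same library held 35775 counts of miR-16a-5p. miR-34a-5p had 738 and 222 counts in 28d replicates 1 and 3 and 0 in 28d replicate 2, where its minor arm miR-34a-3p had 64 counts. miR-103-3p and miR-107-3p had no such gap, with at least 3888 counts in every library.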
